A study of Homo sapiens with 6 samples.

Results

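Complex I subunits and assembly factors were taken as all gene symbols in the count files that start with NDUF, which gave 48 of the 19934 symbols counted. Of these 48, 47 passed the filter on low counts in every comparison. NDUFC2-KCTD14, a readthrough transcript of NDUFC2 and its neighbour, had 0 counts in all 6 libraries and was not tested. By counting error alone, this allows up to 0.179 CPM (read counts scaled to library size). Its true level is not bounded by this, since it shares 99.6% of its exon bases with NDUFC2 and KCTD14. How reads on shared sequence were counted is not given. RNA was sequenced from H1299 cells, an established human non-small cell lung cancer line that the labels call lung adenocarcinoma, in 3 groups of 2 biological replicates that received, over 4 days in all, a control oligo (si-Ctr), an oligo that targets ZBTB11 (si-ZBTB11) or one that targets SET (si-SET). All groups carry the same line and transfection reagent and differ in the oligo. The study's ZBTB11 knockdown for sequencing used 2 oligos, and the labels do not name which of them each si-ZBTB11 library received. The comparison with si-Ctr asked which genes follow the depletion of ZBTB11, a zinc finger transcription factor, or of SET, an oncoprotein studied as its partner.

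Complex I, NADH:ubiquinone oxidoreductase, is the largest enzyme of the mitochondrial respiratory chain. It takes electrons from NADH in its N module, passes them through iron-sulfur clusters to ubiquinone in its Q module, and pumps protons through a membrane arm that is described in a proximal and a distal part. The subunits come from both genomes, and those encoded in the nucleus carry NDUF symbols. The modules are built separately and joined by assembly factors, many of them named NDUFAF, which are absent from the finished enzyme. The symbol NDUFA4 is historical, since its product is now assigned to cytochrome c oxidase (complex IV), and NDUFA4L2 is its paralog.

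The libraries held 16653115 to 17694522 counts, so a floor of 3 counts lay between 0.169 and 0.179 CPM, which covers counting error only. ZBTB11 was at 52.9 and 64.2 CPM in si-Ctr and at 31.8 and 32.4 CPM in si-ZBTB11, and SET was at 666 and 658 CPM in si-Ctr and at 58.3 and 60.6 CPM in si-SET. The targeted RNA was thus lower in the libraries labelled for it. ZBTB11 RNA was also lower in si-SET, at 47.8 and 41.6 CPM (log2 fold change −0.39, adjusted p = 2.12e-05 by edgeR's quasi-likelihood test). The epithelial keratins KRT8 and KRT18 were at 351 to 453 and 400 to 483 CPM, whereas EPCAM was at 0.298 to 0.678 CPM, and the lung lineage genes NKX2-1, NAPSA and SFTPB reached at most 3.58, 0.565 and 0.395 CPM. Defining markers of leukocytes (PTPRC), endothelium (CDH5) and hepatocytes (ALB) reached at most 0.232, 0.0565 and 0.294 CPM. Between replicates, the median absolute log2 ratio of the 47 tested NDUF genes was 0.07 in si-Ctr, 0.09 in si-SET and 0.08 in si-ZBTB11.

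In si-Ctr, the median NDUF gene was at 49.5 CPM, and 46.1 CPM per kilobase of annotated transcript. On this scale per length, small membrane arm subunits stood at the top. NDUFB1 was at 273 CPM per kilobase, NDUFS5 at 230, NDUFB9 at 200 and NDUFB11 at 191. The lowest levels on this scale belonged to NDUFA4L2, at 1.58 CPM per kilobase, NDUFA7 at 1.81 and NDUFA9 at 2.24. The place of NDUFA9 rests on its annotated transcript of 8356 bases. Without division by length it was at 18.7 CPM, above NDUFV2 at 2.29 CPM. Assembly factors lay between 2.497 (NDUFAF5) and 87.5 (NDUFAF8) CPM per kilobase.

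Some of these levels depend on how reads on shared sequence were counted, which is not given in the sources used here. At least 50% of the 31-base words of 7 NDUF genes occur in another annotated gene (GENCODE release 44): NDUFV2 (89.6%), NDUFA13 (83.1%), NDUFA7 (81.1%), NDUFB8 (76.7%), NDUFA11 (66.6%), NDUFAF2 (53.0%) and the readthrough NDUFC2-KCTD14. The core subunit NDUFV2 had 34 and 44 counts in si-Ctr, and NDUFA7 had 22 and 14. Their levels, and those of the others listed, are uncertain. Against si-Ctr, 0 of the 6 tested genes of this kind were called in either knockdown by edgeR or DESeq2, and 0 had an unadjusted p-value under 0.05. NDUFC2 shares 26.0% of its words with NDUFC2-KCTD14 and 18.6% of its exon bases with genes on the same strand, and NDUFS3 shares 16.0% of its exon bases with PTPMT1. The strand setting of the counting is not given either. With genes on either strand, NDUFB2 shares 35.9% of its exon bases and NDUFC1 31.5%.

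Upon ZBTB11 knockdown, 16 of the 47 tested NDUF genes rose and 2 fell at an adjusted p-value under 0.05, and 29 did not pass the test. This is 34.0% higher and 4.26% lower, against 9.94% higher and 10.5% lower over all 13534 genes tested. The increases were small, from 1.11-fold to 1.49-fold with a median of 1.20-fold. NDUFS3 and NDUFS4 rose most, and NDUFC2 fell to 57.0% of its level in si-Ctr. The median log2 fold change of the 47 genes was 0.12, beside 0.00 over all genes, with 34 above 0 and 13 below. The summed level of all NDUF genes was 2637 and 2598 CPM in si-Ctr and 2926 and 2836 CPM in si-ZBTB11, 10.1% higher on average. No NDUF gene reached the study's criteria (unadjusted p below 0.05 and a log2 change of more than 1 in size), which 1.57% of all genes met. DESeq2's Wald test called 10 NDUF genes higher and 1 lower, against 5.33% and 5.78% of the 11684 genes to which it gave an adjusted p-value. The calls of NDUFA1, NDUFA5, NDUFAB1, NDUFB6, NDUFS5, NDUFV1 and NDUFAF1 were lost with it, at adjusted p-values of 0.0975 to 0.214. In bulk RNA, a change in the share of some cells and a change in RNA per cell cannot be told apart.

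**Figure D1:**
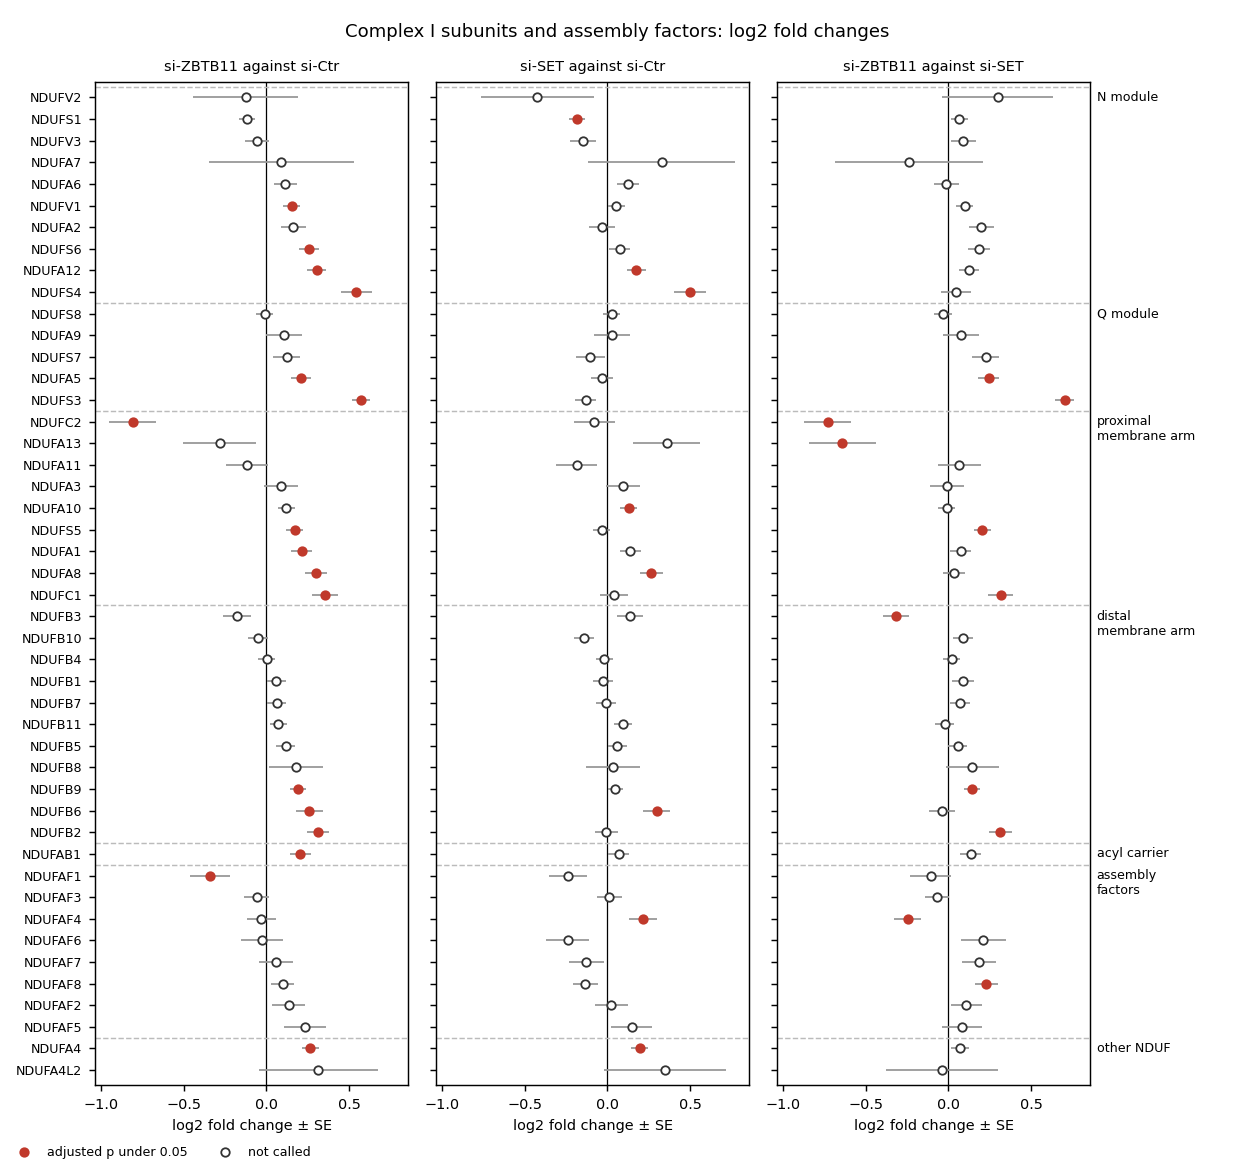
Log2 fold change ± SE (x axis) of 46 NDUF genes (y axis, grouped by position in the complex) in si-ZBTB11 against si-Ctr, si-SET against si-Ctr and si-ZBTB11 against si-SET, from 2 libraries per group. Filled points have an adjusted p-value under 0.05; upon ZBTB11 knockdown NDUFC2 and NDUFAF1 are the filled points below 0 and NDUFS3 lies farthest above it.

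The largest change of an NDUF gene upon ZBTB11 knockdown was the decrease of NDUFC2, an accessory subunit of the proximal membrane arm. NDUFC2 (chromosome 11, 78068297 to 78079862, minus strand, hg38) was at 14.3 and 15.2 CPM in si-Ctr, 14.7 and 13.2 CPM in si-SET and 8.40 and 8.40 CPM in si-ZBTB11. Both si-ZBTB11 libraries lay below the other 4, which overlapped each other. The log2 fold change against si-Ctr was −0.81 ± 0.14 (SE, adjusted p = 3.75e-06; DESeq2 adjusted p = 0.00145). It stayed between −0.85 and −0.77 with any 1 library left out. KCTD14, the neighbour in the readthrough transcript, had a log2 fold change of −0.09 ± 0.29 (SE, adjusted p = 0.873). It had 58 and 37 counts in si-Ctr and 33 and 55 in si-ZBTB11, too few to settle whether it changed.

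In the Q module, where ubiquinone is reduced, 3 of 6 genes rose and 0 fell by edgeR. That is 50% and 0%, against 9.94% and 10.5% over all genes tested. DESeq2 called 2 and 0, and an unadjusted p-value under 0.05 gave 3 and 0. NDUFS3, a core subunit of the earliest assembly intermediates, was at 73.4 and 70.1 CPM in si-Ctr, 67.7 and 63.3 CPM in si-SET and 108 and 105 CPM in si-ZBTB11. Its log2 fold change was 0.57 ± 0.06 (SE, adjusted p = 8.64e-15), the largest increase among NDUF genes. PTPMT1, which shares exon sequence with NDUFS3, had a log2 fold change of −0.08 ± 0.24 (SE, adjusted p = 0.867). It had 70 and 60 counts in si-Ctr and 67 and 55 in si-ZBTB11, too few to settle whether it changed. NDUFA5, an accessory subunit, was at 64.3 and 62.4 CPM in si-Ctr and 74.4 and 71.9 CPM in si-ZBTB11 (log2 fold change 0.21, adjusted p = 0.00838). That call was lost without si-Ctr replicate 2 (0.19, adjusted p = 0.0957) or without si-ZBTB11 replicate 1 (0.18, adjusted p = 0.0922). NDUFS7 and NDUFS8, which carry iron-sulfur clusters, did not pass the test. The summed level of the module was 374 and 370 CPM in si-Ctr and 451 and 444 CPM in si-ZBTB11, 20.2% higher on average.

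In the N module, where NADH is oxidized, 4 of 10 genes rose and 0 fell by edgeR. Their shares of 40% and 0% stand beside 9.94% and 10.5% over all genes tested. DESeq2 called 3 and 0, and an unadjusted p-value under 0.05 gave 5 and 1. NDUFS4, an accessory subunit whose loss causes Leigh syndrome, was at 21.4 and 22.5 CPM in si-Ctr, 34.5 and 29.4 CPM in si-ZBTB11 and 31.07 and 30.96 CPM in si-SET (log2 fold change 0.54 ± 0.10 SE, adjusted p = 3.57e-06 upon ZBTB11 knockdown). It was above both si-Ctr libraries in all 4 knockdown libraries. NDUFA12, an accessory subunit joined late in assembly, was at 92.0 and 89.7 CPM in si-Ctr and 118 and 106 CPM in si-ZBTB11 (log2 fold change 0.30 ± 0.05 SE, adjusted p = 6.51e-06). NDUFS6, a zinc-binding accessory subunit, rose by 0.26 (adjusted p = 0.000636), and by 0.16 without si-ZBTB11 replicate 1 (adjusted p = 0.124). NDUFV1, the core subunit that binds NADH and FMN, rose by 0.15 (adjusted p = 0.0233), a call that was lost without si-Ctr replicate 1 (0.11, adjusted p = 0.289) or si-ZBTB11 replicate 1 (0.13, adjusted p = 0.145). The iron-sulfur core subunit NDUFS1 did not pass the test (log2 fold change −0.12, adjusted p = 0.0658).

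In the proximal membrane arm, 4 of 9 genes rose and NDUFC2 was the 1 that fell by edgeR. That is 44.4% and 11.1%, against 9.94% and 10.5% over all genes tested. DESeq2 called 2 and 1, and an unadjusted p-value under 0.05 gave 5 and 1. NDUFC1, an accessory subunit that neighbours NDUFC2 in the complex, was at 38.9 and 33.3 CPM in si-Ctr and 47.6 and 44.7 CPM in si-ZBTB11 (log2 fold change 0.36 ± 0.08 SE, adjusted p = 0.000263). The direction was thus opposite to that of NDUFC2. Without si-Ctr replicate 2 it was 0.25 (adjusted p = 0.0629), and NDUFC1 shares 12.0% of its exon bases with MGARP on the same strand. NDUFA8, an intermembrane space subunit, was at 51.1 and 48.8 CPM in si-Ctr and 62.8 and 60.1 CPM in si-ZBTB11 (log2 fold change 0.30 ± 0.07 SE, adjusted p = 0.000326). NDUFA1, a small membrane subunit, and NDUFS5, another intermembrane space subunit, rose by 0.21 (adjusted p = 0.0074) and 0.17 (adjusted p = 0.0092). Both calls depended on single libraries. That of NDUFA1 was lost without si-Ctr replicate 2 (0.20, adjusted p = 0.0686) or si-ZBTB11 replicate 2 (0.16, adjusted p = 0.16), and that of NDUFS5 without si-Ctr replicate 1 (0.13, adjusted p = 0.198) or si-ZBTB11 replicate 1 (0.13, adjusted p = 0.135).

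**Figure D2:**
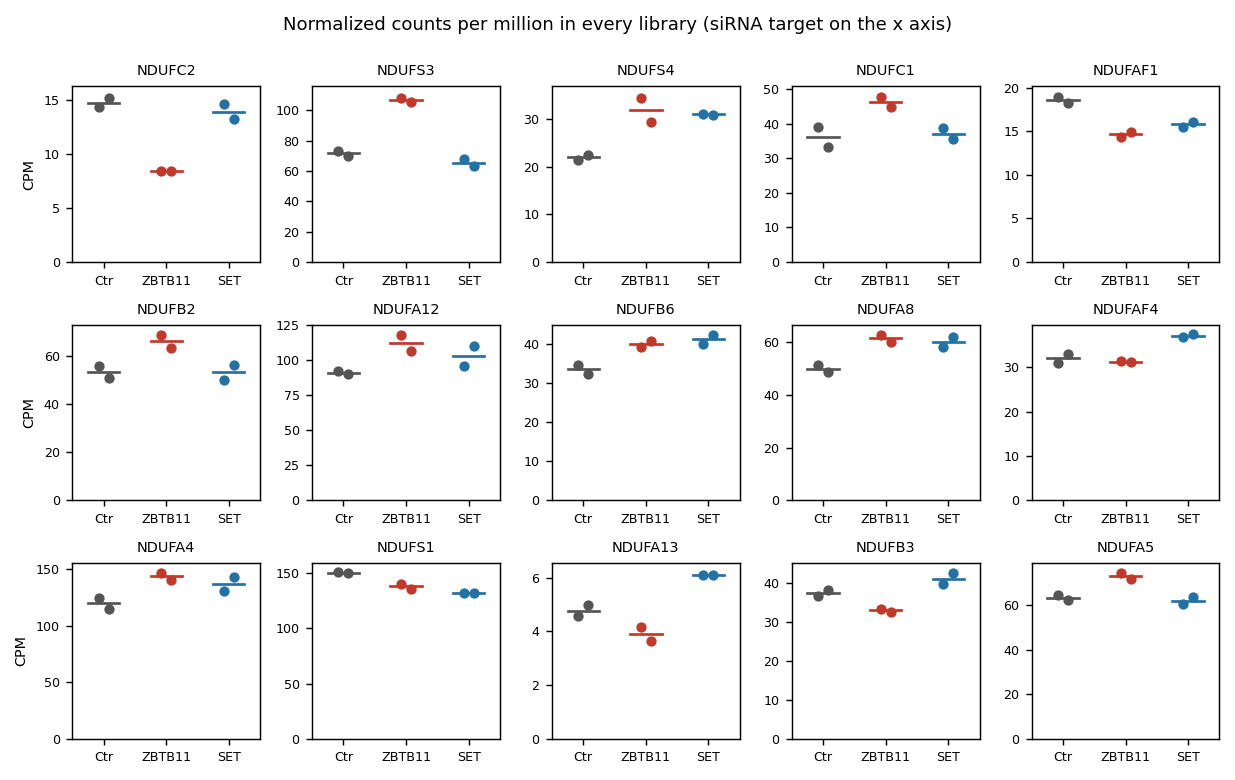
Normalized CPM (y axis, from 0) of 15 NDUF genes with large called changes, in every library, by siRNA (x axis); points are libraries and bars the mean of 2. NDUFC2 is low and NDUFS3 high in si-ZBTB11 alone, while NDUFS4 is high in both knockdowns.

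In the distal membrane arm, which holds proton pumping units encoded in mitochondrial DNA, 3 of 11 genes rose and 0 fell by edgeR. Their shares of 27.3% and 0% stand beside 9.94% and 10.5% over all genes tested. DESeq2 called 2 and 0, and an unadjusted p-value under 0.05 gave 3 and 1. NDUFB2 was at 55.7 and 50.9 CPM in si-Ctr, 50.1 and 56.1 CPM in si-SET and 68.6 and 63.4 CPM in si-ZBTB11 (log2 fold change 0.31 ± 0.07 SE, adjusted p = 0.000154). As for NDUFS3, the si-ZBTB11 libraries alone stood above the rest. NDUFB2 shares 1.44% of its exon bases with genes on the same strand and 35.9% with genes on either strand. The part of this overlap in its level was not tested. NDUFB6 rose from 34.7 and 32.4 CPM to 39.4 and 40.9 CPM (log2 fold change 0.26, adjusted p = 0.0144), and NDUFB9 rose by 0.19 (adjusted p = 0.00136). The NDUFB6 call was lost without si-Ctr replicate 2 (0.21, adjusted p = 0.173) or si-ZBTB11 replicate 2 (0.23, adjusted p = 0.121), and the NDUFB9 call without si-ZBTB11 replicate 1 (0.14, adjusted p = 0.0727). The other 8 accessory subunits of this arm did not pass, and the summed level of the arm was 6.32% higher in si-ZBTB11.

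NDUFAB1, the mitochondrial acyl carrier protein, which also serves in fatty acid synthesis, rose by 0.21 (adjusted p = 0.00989). Its call was lost without si-Ctr replicate 2 (0.19, adjusted p = 0.0959) or si-ZBTB11 replicate 1 (0.12, adjusted p = 0.324). NDUFA4, the complex IV protein, was at 125 and 115 CPM in si-Ctr and 146 and 141 CPM in si-ZBTB11 (log2 fold change 0.27 ± 0.05 SE, adjusted p = 1.61e-05). Of the 7 nuclear core subunits 3 rose, and of the 30 other subunits 12 rose and 1 fell.

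Of the 8 tested assembly factors named NDUFAF, 0 rose and 1, NDUFAF1, fell by edgeR. As shares these are 0% and 12.5%, against 9.94% and 10.5% over all genes tested. The counts were the same at an unadjusted p-value under 0.05, and DESeq2 called 0. NDUFAF1, which helps to assemble the membrane arm, was at 19.0 and 18.2 CPM in si-Ctr, 15.5 and 16.1 CPM in si-SET and 14.3 and 14.96 CPM in si-ZBTB11 (log2 fold change −0.34 ± 0.12 SE, adjusted p = 0.0297). The call was lost without si-Ctr replicate 1 (−0.31, adjusted p = 0.164), si-Ctr replicate 2 (−0.37, adjusted p = 0.0822) or si-ZBTB11 replicate 1 (−0.31, adjusted p = 0.132), and by DESeq2 (adjusted p = 0.214). The summed level of the NDUFAF genes was 220 and 217 CPM in si-Ctr and 223 and 218 CPM in si-ZBTB11, 0.932% higher. Their median log2 fold change was 0.01. A difference between assembly factors and subunits was not tested.

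**Figure D3:**
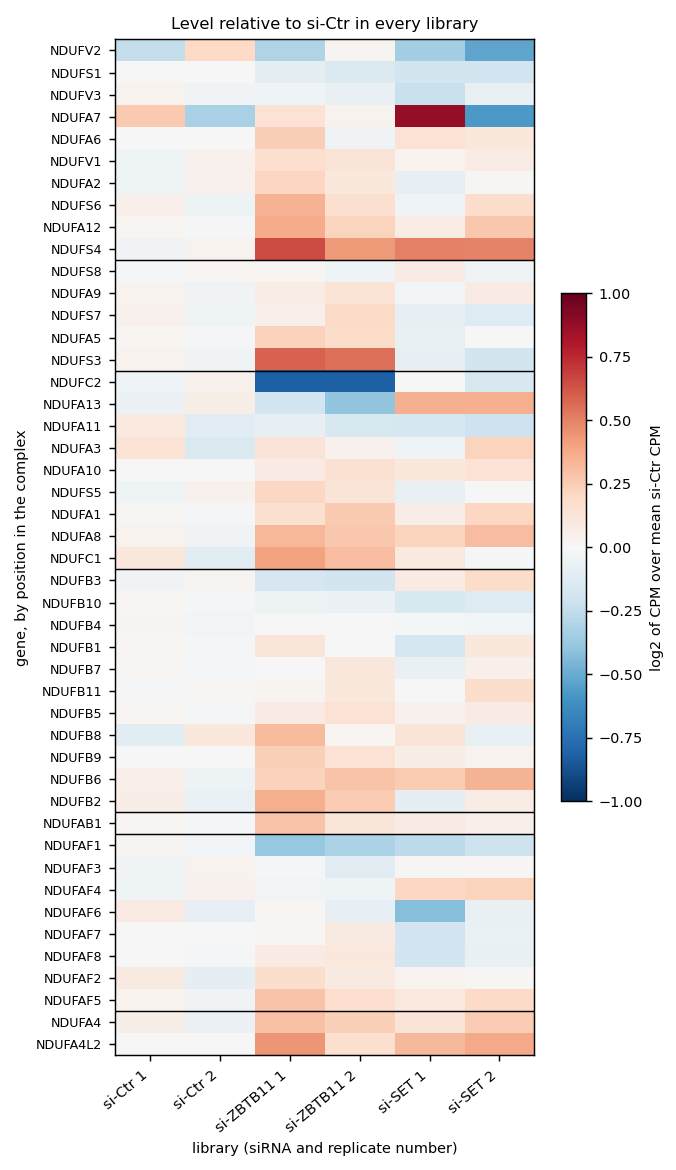
Log2 ratio of each library's CPM to the mean CPM of si-Ctr (colour, red higher and blue lower) for 46 NDUF genes (rows, in the order of the complex) in the 6 libraries (columns). Most rows are pale; both si-ZBTB11 columns are dark blue at NDUFC2 and red at NDUFS3 and NDUFS4, and NDUFA7, a gene of few counts, differs in colour between replicates.

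The study gives the letters CCGGAAG or CAGGAAG as the sequence under ZBTB11 binding sites. The RefSeq promoters (GRCh38.p14, from 250 bases before to 50 after the start) of 40 NDUF genes were searched for both on either strand. They are shown for NDUFS3 and NDUFS4, which had the largest increases among genes with an entry, and for NDUFAF1, the gene that fell and has an entry. NDUFC1, whose increase was slightly larger in size than the decrease of NDUFAF1, held 0 matches and is not shown. Capitals mark the matches, reverse complements included, and each window is given 5′ to 3′ on the strand of its gene, at chr11:47578824-47579123 (plus), chr5:53560389-53560688 (plus) and chr15:41402447-41402746 (minus).
NDUFS3: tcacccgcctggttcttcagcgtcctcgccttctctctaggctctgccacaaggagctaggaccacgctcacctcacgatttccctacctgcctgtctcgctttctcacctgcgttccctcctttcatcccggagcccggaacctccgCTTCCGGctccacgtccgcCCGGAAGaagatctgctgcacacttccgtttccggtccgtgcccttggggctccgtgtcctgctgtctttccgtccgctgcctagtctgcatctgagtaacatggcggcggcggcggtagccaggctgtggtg
NDUFS4: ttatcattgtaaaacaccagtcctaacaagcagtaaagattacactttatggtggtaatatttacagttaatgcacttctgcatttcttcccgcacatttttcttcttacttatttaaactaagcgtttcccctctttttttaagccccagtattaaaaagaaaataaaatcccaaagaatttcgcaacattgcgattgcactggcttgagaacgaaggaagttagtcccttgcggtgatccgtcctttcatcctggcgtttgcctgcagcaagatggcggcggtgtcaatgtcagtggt
NDUFAF1: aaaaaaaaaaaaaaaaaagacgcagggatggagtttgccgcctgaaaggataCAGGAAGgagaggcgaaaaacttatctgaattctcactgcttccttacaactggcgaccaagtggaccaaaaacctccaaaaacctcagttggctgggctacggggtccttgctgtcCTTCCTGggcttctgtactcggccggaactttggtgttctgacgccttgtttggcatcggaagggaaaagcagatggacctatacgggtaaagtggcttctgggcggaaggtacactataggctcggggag

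NDUFS3 held 2 matches of CCGGAAG, at −102 and −83 from the start, NDUFAF1 held 2 of CAGGAAG, at −198 and −81, and NDUFS4 held none of these letters in this window. Among the 40 promoters, 11 (27.5%) held 1 of the 2 forms, and among the promoters of 14896 symbols in the count files 25.4% did. The share in NDUF genes is thus near that of all genes. The central letters of the NRF1 site, CGCATGCG, the binding sequence of a known activator of respiratory genes, stood in 5 of 40 promoters (12.5%), those of NDUFA8, NDUFAF5, NDUFB4, NDUFS6 and NDUFS7, and in 2.89% of the 14896. Of these 5 genes, NDUFA8 and NDUFS6 rose upon ZBTB11 knockdown, beside 16 of the 47 tested NDUF genes (34.0%) and 9.94% of all genes tested. A match of letters does not show a binding site.

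Upon SET knockdown, 8 of the 47 NDUF genes rose and 1 fell, 17.0% and 2.13%, against 13.1% and 13.9% over all 13599 genes tested. The share that rose is close to the background. NDUFS4 rose most, by the values given above, with a log2 fold change of 0.50 ± 0.10 (SE, adjusted p = 1.67e-05). DESeq2 called 2 higher, NDUFS4 among them, and NDUFS1 lower, against 6.03% and 7.59% of genes. The median log2 fold change was 0.03, beside 0.00 over all genes, and the summed level was 2649 and 2756 CPM, 3.25% higher than in si-Ctr. No NDUF gene met the study's criteria, which 2.15% of genes did.

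NDUFS1, the largest core subunit of the N module, which carries iron-sulfur clusters, was the gene that fell upon SET knockdown. It was at 150.9 and 149.9 CPM in si-Ctr, 132 and 132 CPM in si-SET and 141 and 136 CPM in si-ZBTB11. The 3 groups did not overlap, and the log2 fold change in si-SET was −0.19 ± 0.05 (SE, adjusted p = 0.0014), called with any library left out. The 3′ UTR of NDUFS1, 9368 bases long, holds 3 matches to the seed of the si-SET oligo and 2 to that of the second ZBTB11 oligo. Their part in the result was not tested.

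These further increases upon SET knockdown depended on single libraries. NDUFB6 was at 40.1 and 42.4 CPM in si-SET (log2 fold change 0.30 ± 0.08 SE, adjusted p = 0.0035), and its call was lost without si-Ctr replicate 2 (0.25, adjusted p = 0.0709) or si-SET replicate 2 (0.26, adjusted p = 0.0579). NDUFA8 was at 58.2 and 61.7 CPM (0.26 ± 0.07 SE, adjusted p = 0.00205), lost without si-Ctr replicate 2 (0.23, adjusted p = 0.056). NDUFA4 was at 131 and 143 CPM (0.19 ± 0.05 SE, adjusted p = 0.00176), lost without si-Ctr replicate 2 (0.14, adjusted p = 0.143) or si-SET replicate 2 (0.13, adjusted p = 0.115). These 3 genes also rose upon ZBTB11 knockdown, but both comparisons share the si-Ctr libraries. NDUFA12 was at 95.7 and 109.6 CPM (0.18, adjusted p = 0.0128), lost without si-Ctr replicate 2 (0.16, adjusted p = 0.121) or si-SET replicate 2 (0.07, adjusted p = 0.482), and it was 0.27 without si-SET replicate 1 (adjusted p = 0.00059). NDUFAF4, a factor that acts on the Q module, was at 31.03 and 32.9 CPM in si-Ctr and 36.8 and 37.4 CPM in si-SET (0.22 ± 0.09 SE, adjusted p = 0.0485). NDUFA10, a proximal arm subunit, was at 114 and 115 CPM in si-Ctr and 123 and 127 CPM in si-SET (0.13, adjusted p = 0.0489). Both sat at the threshold, and neither was called with any library left out: NDUFAF4 ranged from 0.17 to 0.26 and NDUFA10 from 0.11 to 0.14 in those fits.

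The difference between the knockdowns was tested directly, without the si-Ctr libraries. In si-ZBTB11 against si-SET, 7 of 47 NDUF genes were higher and 4 lower, 14.9% and 8.51%, against 9.61% and 8.58% over all 13549 genes. NDUFS3 differed most upward, with a log2 fold change of 0.70 ± 0.06 (SE, adjusted p = 8.52e-11), 1.63-fold, and NDUFC2 most downward, with −0.73 ± 0.14 (SE, adjusted p = 0.000261). For NDUFS4, which rose in both knockdowns, the difference did not pass the test (0.04 ± 0.09 SE, adjusted p = 0.792). NDUFB2 (0.31 ± 0.07 SE, adjusted p = 0.00132) and NDUFC1 (0.31 ± 0.08 SE, adjusted p = 0.00369) were also higher in si-ZBTB11, and all of NDUFS3, NDUFC2, NDUFB2 and NDUFC1 were called with any library left out. DESeq2 called 4 higher (NDUFS3, NDUFB2, NDUFC1 and NDUFS5) and 1 lower (NDUFC2), against 5.57% and 4.55% of genes, and no NDUF gene met the study's criteria, which 1.36% of genes did.

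Further differences between the knockdowns were less stable. NDUFB3, a distal arm subunit, was at 39.7 and 42.6 CPM in si-SET and 33.3 and 32.7 CPM in si-ZBTB11, on either side of 36.6 and 38.2 CPM in si-Ctr. Its log2 fold change between the knockdowns was −0.32 ± 0.08 (SE, adjusted p = 0.0049), and −0.26 without si-SET replicate 2 (adjusted p = 0.061), while neither knockdown passed against si-Ctr. NDUFA13, also known as GRIM-19, was at 4.57 and 4.96 CPM in si-Ctr, 6.10 and 6.11 CPM in si-SET and 4.17 and 3.64 CPM in si-ZBTB11 (−0.64 ± 0.20 SE, adjusted p = 0.0247). Its level is uncertain because of shared sequence, and the call was lost without si-ZBTB11 replicate 2 (−0.55, adjusted p = 0.167), si-SET replicate 1 (−0.64, adjusted p = 0.0813) or si-SET replicate 2 (−0.64, adjusted p = 0.073). NDUFA5 (0.24, adjusted p = 0.00587) and NDUFS5 (0.21, adjusted p = 0.00543) were higher in si-ZBTB11, and both calls were lost without si-ZBTB11 replicate 1 (0.22, adjusted p = 0.0569, and 0.17, adjusted p = 0.0721) or si-SET replicate 1 (0.21, adjusted p = 0.0541, and 0.17, adjusted p = 0.0682). NDUFAF8, a partner of NDUFAF5, was higher (0.23, adjusted p = 0.0218), and NDUFB9 was higher by 0.14 (adjusted p = 0.041). NDUFAF4 was lower (−0.25 ± 0.08 SE, adjusted p = 0.0328). NDUFAF8 was called without si-SET replicate 2 alone, NDUFB9 without si-ZBTB11 replicate 2 alone and NDUFAF4 in no such fit, with ranges of 0.18 to 0.29, 0.10 to 0.19 and −0.26 to −0.24.

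Of the other genes of complex I, 14 assembly factors without an NDUF symbol and the 7 subunits encoded in mitochondrial DNA were all tested. Upon ZBTB11 knockdown, 2 assembly factors (14.3%) and 4 mitochondrial subunits (57.1%) rose by edgeR, and 0 fell. Over all genes tested, 9.94% rose and 10.5% fell, so the share of assembly factors was near that of all genes. By DESeq2, 0 and 3 rose and 0 fell. At an unadjusted p-value under 0.05, 1 assembly factor and 0 mitochondrial subunits fell. MT-ND1 had 23663 and 22805 counts in si-Ctr and an SE of 0.03, so small changes could pass the test. ACAD9 and DMAC1, which act in building the membrane arm, rose by 0.19 (adjusted p = 0.0207) and 0.29 (adjusted p = 0.00484). ACAD9 was lost without si-Ctr replicate 1 (0.21, adjusted p = 0.0669), si-Ctr replicate 2 (0.18, adjusted p = 0.127) or si-ZBTB11 replicate 2 (0.16, adjusted p = 0.185), and DMAC1 without si-ZBTB11 replicate 1 (0.27, adjusted p = 0.0576). DESeq2 called neither.

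Of the membrane arm subunits made in mitochondria, MT-ND2 was at 1408 and 1349 CPM in si-Ctr, 1326 and 1289 CPM in si-SET and 1652 and 1516 CPM in si-ZBTB11 (log2 fold change 0.20, adjusted p = 2.44e-07). MT-ND3 was at 605 and 614 CPM in si-Ctr, 569 and 610 CPM in si-SET and 742 and 685 CPM in si-ZBTB11 (0.23, adjusted p = 1.3e-07). Both were higher in si-ZBTB11 than in every other library, and both were called with any library left out. MT-ND4L rose by 0.12 (adjusted p = 0.00434), lost without si-Ctr replicate 1 (0.10, adjusted p = 0.0833) or si-ZBTB11 replicate 2 (0.08, adjusted p = 0.157). MT-ND1 was at 1352 and 1363 CPM in si-Ctr and 1563 and 1392 CPM in si-ZBTB11. It was called by edgeR (0.12, adjusted p = 0.00251) but not by DESeq2 (adjusted p = 0.431), and the value rested on si-ZBTB11 replicate 1, without which it was 0.04 (adjusted p = 0.553). It was 0.20 without si-ZBTB11 replicate 2 (adjusted p = 3.71e-07). Upon SET knockdown MT-ND1 and MT-ND4 fell, with log2 fold changes of −0.16 (adjusted p = 5.61e-05) and −0.10 (adjusted p = 0.0105). MT-ND4 was not called without si-Ctr replicate 1 (−0.11, adjusted p = 0.0528) or si-Ctr replicate 2 (−0.08, adjusted p = 0.149). Between the knockdowns, MT-ND1, MT-ND2 and MT-ND3 were each 0.28 higher in si-ZBTB11, with adjusted p-values of 5.81e-06, 2.9e-06 and 1.33e-05.

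Upon SET knockdown, the assembly factor ECSIT rose (0.26, adjusted p = 0.0254) and COA1 fell (log2 fold change −0.16, adjusted p = 0.0269). DESeq2 called neither, and each was called in 1 of the 4 fits with a library left out: ECSIT without si-SET replicate 2 and COA1 without si-SET replicate 1. In si-ZBTB11 against si-SET, AIFM1, which supports import of intermembrane space subunits, was higher (0.23, adjusted p = 0.00384), and 0.18 without si-SET replicate 1 (adjusted p = 0.0677). DMAC2, a distal arm factor, was lower (−0.15, adjusted p = 0.0319), between −0.18 and −0.12 and not called with any library left out.

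**Figure D4:**
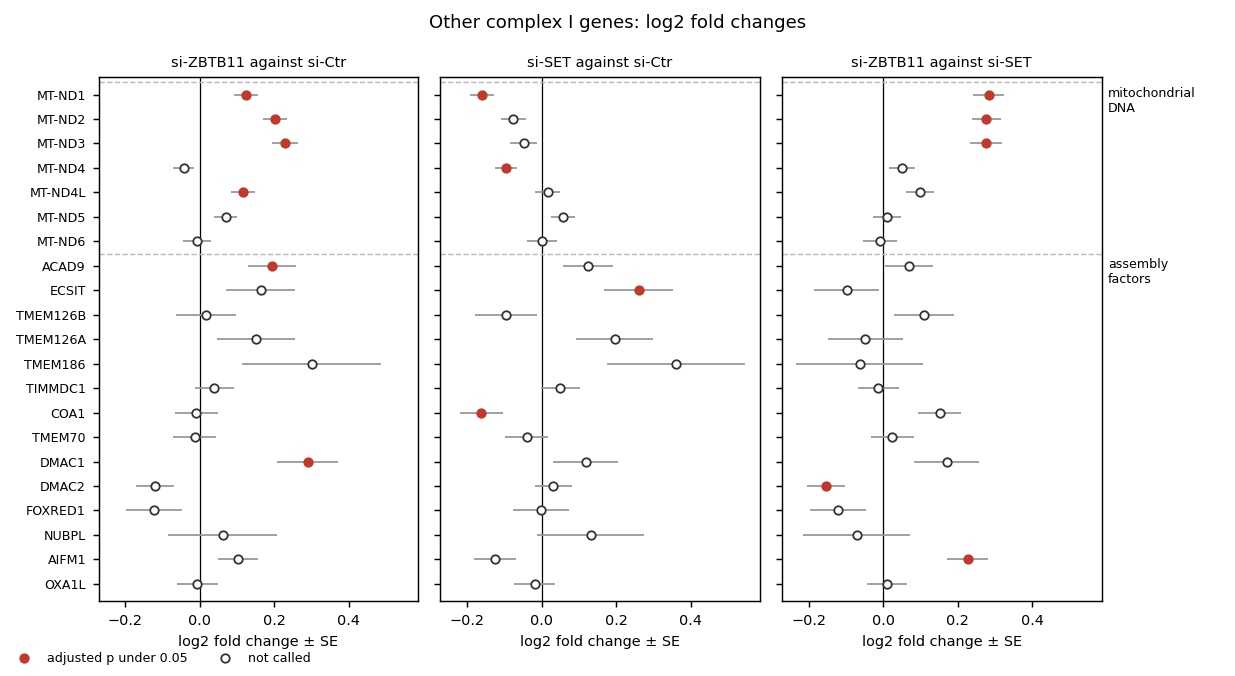
Log2 fold change ± SE (x axis) of 7 mitochondrially encoded complex I subunits and 14 assembly factors without an NDUF symbol (y axis) in the 3 comparisons, 2 libraries per group; filled points have an adjusted p-value under 0.05. MT-ND2 and MT-ND3 are called higher in si-ZBTB11 against both other groups.

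NDUF transcripts are short, with a median annotated length of 758 bases against 3390 over all genes tested. Upon ZBTB11 knockdown, the 671 tested genes with transcripts under 1000 bases had a median log2 fold change of 0.06, and the 30 NDUF genes among them 0.13. Across all genes, Spearman's rho with the log2 fold change was −0.06 for length and −0.11 for GC content, where genes are not independent replicates. Among the 671 genes under 1000 bases, rho was −0.20 for length and −0.23 for GC content. Among the 30 NDUF genes of that length, it was 0.12 and −0.22. The part of length in the result was not tested. In annotated 3′ UTRs, matches to the seeds of the 2 ZBTB11 oligos stood in 4.17% and 8.33% of NDUF genes, against 11.3% and 8.86% of 18452 genes. These shares depend on the length of the 3′ UTR and were not adjusted for it. NDUFC2, NDUFAF1, NDUFS3 and NDUFS4 held none for these or the si-SET oligo, in 3′ UTRs of 1690, 91, 81 and 117 bases. The part of seed matches in the result was not tested. NDUFA5 held 1 match to the seed of the second ZBTB11 oligo.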

How the data were processed

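Libraries were made with an NEBNext Ultra RNA kit. The authors mapped the reads to hg38 by HISAT2 2.0.5 and deposited whole-number counts per gene from featureCounts 1.5.0-p3, one file per library, without normalization. The annotation, the strand setting and the handling of reads on several genes are not given in the sources used here.

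Groups and replicate numbers came from the labels. From the deposited counts, the 2 groups of each comparison were fitted with edgeR 4.0.16 in R 4.3.3 (TMM, the filterByExpr default filter, quasi-likelihood test, two-sided, Benjamini-Hochberg over all genes tested). CPM values use TMM factors of all 6 libraries. Errors of log2 fold changes are SE derived from edgeR's quasi-likelihood F statistic, which shares information on variability across genes. They do not measure the spread of the 2 replicates alone. The SE by DESeq2 upon ZBTB11 knockdown was 0.077 for NDUFA12 and 0.17 for NDUFAF1, against 0.055 and 0.121 by edgeR. DESeq2 1.42.0 and further settings were alternatives. With 2 against 2 libraries an exact permutation test cannot go below p = 0.333, so p-values come from models across genes. Values per library are given for the 8 called genes without overlap that changed most in each comparison. The members, modules and lists were chosen with earlier results of these data known. Replicates are called biological by the study, and chi-square per degree of freedom between them was 2.34 to 2.71, so none was counted as a duplicate. Annotation came from GENCODE release 44, to which all 48 symbols matched. NDUFC2 and other members without a promoter entry were not searched for motifs. A few values of individual genes are not reported here, in text or figures, though counts and sums cover all members. siRNA target sequences came from the study's supplement.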

Additional observations from a re-analysis of the deposited data

How the results depend on the processing

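No tested NDUF gene that was called changed direction under any setting. Upon ZBTB11 knockdown, DESeq2 called 10 NDUF genes higher and 1 lower in place of 16 and 2. Upon SET knockdown it called 2 higher in place of 8, and between the knockdowns 4 higher and 1 lower in place of 7 and 4. The study's criteria gave 0 in each direction in every comparison. With 1 library left out, the remaining library of its group assumed to vary like the other group, ZBTB11 knockdown gave 10 to 15 higher and 1 to 2 lower, with 10 without si-ZBTB11 replicate 1. SET knockdown gave 2 to 8 higher and 1 to 2 lower, with 2 without si-Ctr replicate 2 and 3 without si-SET replicate 2. The direct comparison gave 3 to 9 higher and 1 to 3 lower, with 3 without si-SET replicate 1. The median log2 fold change stayed between 0.10 and 0.13, 0.01 and 0.06, and 0.038 and 0.121 in these fits. With the replicate block, ZBTB11 knockdown gave 17 higher and 3 lower, SET knockdown 8 and 1, and the direct comparison 10 and 4. Same-numbered libraries had correlated deviations of only 0.0202 to 0.062, so the numbers were not taken as pairs. Of the 38 called values, DESeq2 kept 19, library size only kept 34 and the replicate block kept 38. Of the other complex I genes, DESeq2 called 3 higher upon ZBTB11 knockdown, all mitochondrial subunits, against 5.33% of all genes. At this depth and with 2 libraries per group, small changes of genes under 5 CPM, such as NDUFA7, NDUFV2 and NDUFA4L2, were not detectable.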

Other observations

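Neighbouring mitochondrial gene groups were described in the same way. Of 38 nuclear subunits of complexes II to V, 11 rose and 2 fell upon ZBTB11 knockdown (28.9% and 5.26%, against 9.94% and 10.5% of all genes), with a median log2 fold change of 0.09, and DESeq2 called 6 and 2. Upon SET knockdown 5 rose and 8 fell (13.2% and 21.1%, against 13.1% and 13.9%), with a median of −0.04, and DESeq2 called 3 and 3. In si-ZBTB11 against si-SET, 9 were higher and 3 lower (23.7% and 7.89%, against 9.61% and 8.58%), and DESeq2 called 6 and 1. Their summed level was 6725 and 6686 CPM in si-Ctr, 7148 and 6817 CPM in si-ZBTB11 and 6619 and 6676 CPM in si-SET. Of 78 mitochondrial ribosomal proteins, which translate the mitochondrially encoded subunits, 7 rose and 7 fell upon ZBTB11 knockdown (8.97% each, near the share of all genes), with a median of 0.01, and 9 rose and 5 fell upon SET knockdown (11.5% and 6.41%), with a median of 0.02. DESeq2 called 3 and 5, and 5 and 1. Their summed level was 4414 and 4402 CPM in si-Ctr and 4459 and 4338 CPM in si-ZBTB11, so the groups overlapped. Differences between these gene groups and NDUF genes were not tested.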
